A study of Mus musculus with 3 samples.

Results

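The 8 genes described here are 5 receptors for peptide hormones (Rxfp1, Oxtr, Prlr, Ghr and Pth1r), the secreted peptide gene Pthlh, and the stanniocalcin genes Stc1 and Stc2. They were chosen by symbol, with earlier results of these data known. They are 8 of the 28693 genes listed in the deposited matrices, of which 18732 had a transcript in the cells kept. All 8 were among those. Each was followed through 3 single-cell libraries of mouse abdominal dermis and through cell classes named from marker genes.

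Rxfp1 encodes the receptor for relaxin, a hormone of pregnancy that loosens connective tissue in the pubic symphysis and cervix of rodents, and Oxtr encodes the receptor for oxytocin. Prlr and Ghr encode the prolactin and growth hormone receptors, which signal through the kinase Jak2 and the transcription factors Stat5a and Stat5b. Pth1r encodes the receptor shared by parathyroid hormone and Pthlh (parathyroid hormone-like hormone), a locally acting peptide that keratinocytes of mouse skin are known to make and that acts on nearby mesenchyme. Stc1 and Stc2 encode secreted glycoproteins, and both proteins block pappalysins, the proteases that free insulin-like growth factors from their binding proteins.

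All mice were C57BL/6, of 8 to 12 weeks, and carried Col1a2creERT2, a tamoxifen-activated recombinase driven by a type I collagen promoter, with R26H2B EGFP, a nuclear reporter at Rosa26. All had been given tamoxifen. NP stands for non-pregnant controls, treated for 3 days and sampled 48 days later. The tissue for dpc16 was taken at day 16 of gestation, that for dpp42 at 42 days postpartum, and the mice of both had received tamoxifen while pregnant. The recombinase is driven by the promoter of a collagen gene, all groups carry it, and its target named in the labels is the reporter. Fat was cut away, the skin was parted with 0.25% trypsin over 30 min, and dermal cells were passed through 40 and 20 µm filters and loaded on a 10x Chromium (version 2 chemistry, which counts the 3′ ends of transcripts). The labels do not say how many mice went into each library.

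Each stage was 1 library, so no test was possible and no p-value is given. UMIs (unique molecular identifiers, each standing for a captured transcript) were summed over the cells of a class and scaled to 1000000 UMIs of that class (CPM). Intervals in parentheses are 95% intervals that cover counting error only. They do not cover differences between mice, dissections or libraries, and a stage cannot be told apart from its library. NP had 1289 kept cells with 5905715 UMIs, dpc16 3652 cells with 19711100, and dpp42 1081 cells with 5432269. Barcode sequences found in both libraries of a pair numbered 6 for NP and dpc16, 1 for NP and dpp42, and 4 for dpc16 and dpp42. The samples are labelled as dermal cells, but fibroblast-like cells, with all 12 fibroblast markers detected, made up 7.99, 30.8 and 10.4% of NP, dpc16 and dpp42, or 103, 1124 and 112 cells, beside 825, 1015 and 544 keratinocyte-like and 172, 553 and 183 sebocyte-like cells. Levels are therefore given within classes. Median UMIs per fibroblast-like cell were 2617, 4040.5 and 2420, highest in dpc16. The smallest deposited barcodes held 1916, 2494 and 1908 UMIs in NP, dpc16 and dpp42, so the libraries also differed in their lower limit. The dpc16 library also differed in heat-shock transcripts: Hspa1a, Hspa1b, Hspb1 and Hsp90aa1 together reached 3414, 8594 and 3372 CPM in fibroblast-like cells and 3490, 9889 and 3552 CPM in sebocyte-like cells of the 3 libraries. Their part in the results was not tested.

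Positions are from the GENCODE M21 annotation of GRCm38, the build of the files. Rxfp1 is at chr3:79641611-79737880 on the minus strand, Oxtr at chr6:112473683-112489943 minus, Pthlh at chr6:147252101-147264183 minus, Pth1r at chr9:110722085-110747145 minus, Stc2 at chr11:31357307-31370074 minus, Stc1 at chr14:69029238-69041804 plus, Ghr at chr15:3317760-3583492 minus and Prlr at chr15:10177238-10349180 plus. Prlr and Ghr, relatives within the class I cytokine receptor family, are on the same chromosome. Some annotated genes overlap members: Gm26984 overlaps Rxfp1 and Gm21973 overlaps Prlr on the same strand, while Myl3 overlaps Pth1r and Gm41192 overlaps Stc1 on the opposite strand. The sources used here do not say whether reads were counted by strand. The part of neighbouring genes in the values of those 4 members was not tested.

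Pthlh and Stc2 were higher at dpc16 than in NP fibroblast-like cells, and Oxtr lower at both dpc16 and dpp42. The stretch just before their transcription starts is shown so that these promoters can be compared. The sequences are from RefSeq (GRCm38.p6, minus strand, written 5′ to 3′), limited to bases outside annotated exons. Capitals mark matches on either strand to any of 6 motifs searched: the hypoxia response core ACGTG, the STAT site TTCNNNGAA, the cyclic AMP response core TGACG, the AP-1 site TGANTCA, the GC box GGGCGG and the E-box CANNTG.
Pthlh promoter, chr6:147264184-147264263, bases 250 to 171 before the start: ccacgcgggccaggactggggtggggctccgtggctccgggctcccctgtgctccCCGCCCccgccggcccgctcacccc
Stc2 promoter, chr11:31370075-31370311, bases 250 to 14 before the start: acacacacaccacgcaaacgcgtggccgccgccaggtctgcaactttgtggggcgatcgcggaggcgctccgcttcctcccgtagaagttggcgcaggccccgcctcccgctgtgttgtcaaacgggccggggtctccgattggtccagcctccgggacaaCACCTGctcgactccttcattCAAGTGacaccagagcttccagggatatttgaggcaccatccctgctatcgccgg
Oxtr promoter, chr6:112489944-112490075, bases 250 to 119 before the start: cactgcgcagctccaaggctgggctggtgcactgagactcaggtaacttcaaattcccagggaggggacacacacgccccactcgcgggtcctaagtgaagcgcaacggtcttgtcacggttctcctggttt
The Pthlh stretch has a G and C content of 82.5%, against 50.6% for the same stretch of all 32851 promoters in the table, and holds 1 GC box, read on the other strand as CCGCCC. A GC box is present in 8.27% of promoters over that length. The Stc2 stretch has a G and C content of 63.3%, against 53.0% for all promoters, and its 2 E-boxes are a motif found in 64.4% of promoters over that length. The Oxtr stretch, at 59.1% against 51.3%, holds none of the 6 motifs. Matches describe these letters only. RefSeq promoters were matched for 6 of the 8 members, and Rxfp1 and Stc1 had no entry.

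In the cells of all classes together, the members fell into those spread over epithelium and stroma (Prlr, Ghr, Oxtr, Pthlh) and those centred on fibroblast-like or endothelial-like cells (Rxfp1, Pth1r, Stc1, Stc2). Fibroblast-like cells held 100, 81.8 and 87.1% of the Rxfp1 UMIs of NP, dpc16 and dpp42. They held 56.2, 91.8 and 91.7% of the Pth1r UMIs, and 89.9% of the Stc2 UMIs of dpc16, where 376 of its 387 UMIs lay. Mural-like cells of dpc16, 29 in number, had 30.2 CPM of Rxfp1 (8.22 to 77.2). That was above the 3.63 CPM (2.15 to 5.73) of fibroblast-like cells, but all 4 UMIs came from 1 cell.

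**Figure D1:**
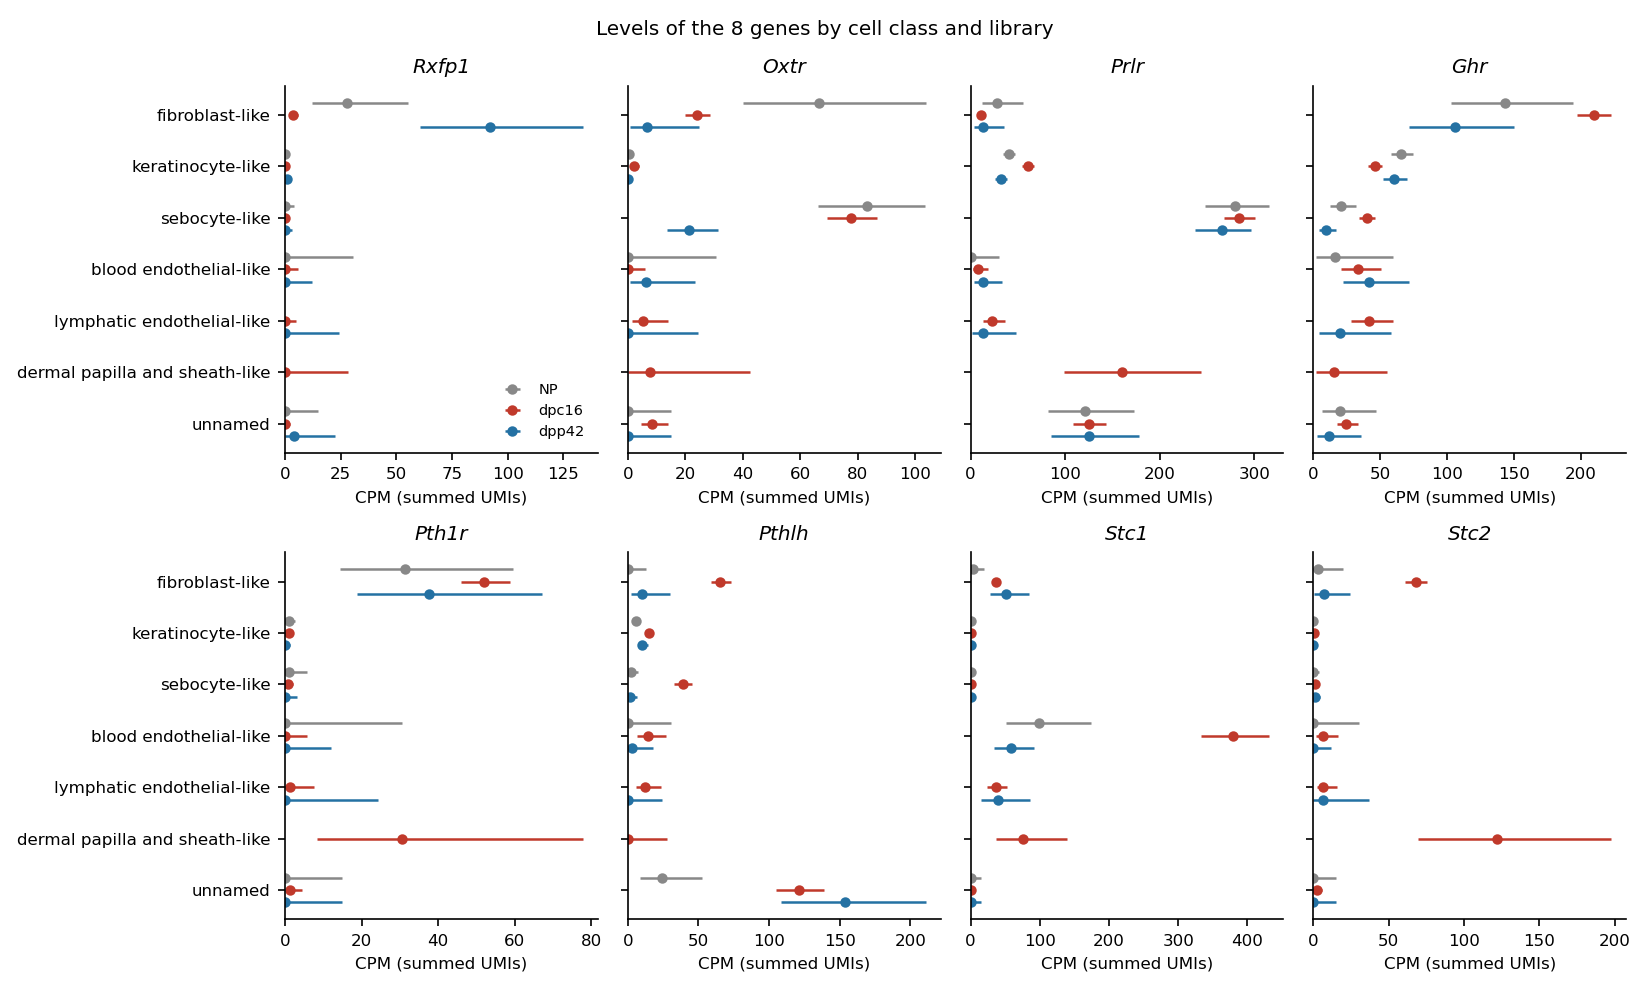
Level of each of the 8 genes in 6 named cell classes and the unnamed keratin clusters, as CPM of summed UMIs on the horizontal axis, for NP (grey), dpc16 (red) and dpp42 (blue), each 1 library, in class and library combinations of at least 20 cells. Bars are 95% counting intervals. Prlr is highest in sebocyte-like cells of all 3 libraries, at 280, 284 and 266 CPM, and Stc1 is highest in blood endothelial-like cells of dpc16, at 379 CPM.

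The order of classes differed by receptor. Among classes with at least 20 cells, Prlr was highest in sebocyte-like cells of all 3 libraries, with intervals that did not overlap those of the next class. The unnamed keratin clusters came next in NP and dpp42, at 121 and 125 CPM, and in dpc16 the dermal papilla and sheath-like cells, at 160 CPM (98.9 to 244), came next with an interval that overlapped that of the unnamed clusters at 125 CPM. Ghr was highest in fibroblast-like cells of all 3 libraries, apart from keratinocyte-like cells beyond counting error. Oxtr was highest in sebocyte-like cells, but in NP its level there, 83.0 CPM (65.9 to 103), overlapped that of fibroblast-like cells, 66.3 CPM (39.9 to 104), as it did in dpp42. Without clusters 4 and 11, which have no sebocyte marker among their 10 leading genes, the sebocyte-like level in NP was 34.2 CPM, below that of fibroblast-like cells, and 52.7 CPM in dpc16 and 10.5 CPM in dpp42. Pth1r led in fibroblast-like cells of each library, and in dpc16 its interval overlapped those of the 31 dermal papilla and sheath-like and 29 mural-like cells, at 30.4 and 30.2 CPM.

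Transcripts freed from broken cells can enter any droplet, so levels in classes that should lack a gene are given as background. Rxfp1 was at 0 UMIs in the sebocyte-like cells of all 3 libraries, which allows at most 3.08, 0.726 and 2.55 CPM at 3 counts. Stc1 stood at 0.247, 0.772 and 0 CPM and Stc2 at 0, 0.463 and 0 CPM in keratinocyte-like cells of NP, dpc16 and dpp42. In dpc16 the share of cells with a Pth1r UMI was 16.8% of fibroblast-like cells (median 4040.5 UMIs) beside 0.493% of keratinocyte-like cells (median 4400 UMIs). The same shares were 8.90 and 1.28% for Oxtr, and 6.23 and 0.493% for Stc1. Stc2 had a UMI in 169 of 1124 fibroblast-like and 3 of 1015 keratinocyte-like cells. The fibroblast-like levels of these 4 genes in dpc16 therefore lay above that background.

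Between dpc16 and NP fibroblast-like cells, the secreted factors were higher and 3 of the 5 receptors lower. A gene was taken as measured with at least 20 UMIs over the 2 libraries and 10 CPM in 1 of them, and as past the limit, higher or lower, where the levels differed 1.5-fold or more with 1 outside the interval. By that rule Pthlh, Stc1 and Stc2 were higher, Rxfp1, Oxtr and Prlr lower, and Ghr and Pth1r neither, with all 8 measured. Over all 8164 genes measured in that comparison, 6.33% were higher and 15.9% lower. The median log2 ratio was 0.59 for the members and −0.30 for all measured genes.

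Rxfp1, the relaxin receptor, had 8 UMIs in 6 of 103 NP cells, 18 UMIs in 16 of 1124 dpc16 cells and 27 UMIs in 8 of 112 dpp42 cells. Its levels in that order were 27.9 CPM (12.1 to 55.0), 3.63 CPM (2.15 to 5.73) and 92.1 CPM (60.7 to 134). The intervals did not overlap, with dpc16 lowest and dpp42 highest. Rxfp1 was 7.70-fold lower (2.90 to 18.6) in dpc16 than in NP, 3.30-fold higher (1.46 to 8.40) in dpp42 than in NP and 25.4-fold higher (13.5 to 48.9) in dpp42 than in dpc16. Few cells carried it: 3 cells held 16 of the 27 dpp42 UMIs, and 1 cell held 3 of the 8 NP UMIs. With mitochondrial UMIs limited to 5%, or with shared clusters weighted equally, both calls against NP ended, although under the 5% limit the levels were 3.10 CPM in dpc16 and 70.3 CPM in dpp42 against 26.1 CPM in NP. The dpc16 call also ended without clusters 25, 29 and 31, at 4.83 CPM in dpc16 and 26.5 CPM in NP. Cluster 19, led by Col3a1, Igfbp2, Mmp3 and Clec3b, held 25 of the 27 dpp42 UMIs, at 138 CPM (89.4 to 204), against 13.2 CPM (6.83 to 23.1) in dpc16 cells of the same cluster. The lower dpc16 level relative to dpp42 was thus present within a single cluster.

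Oxtr, the oxytocin receptor, had 66.3 CPM in NP, 24.0 CPM (19.9 to 28.7) in dpc16 and 6.82 CPM (0.826 to 24.6) in dpp42, from 19, 119 and 2 UMIs. The NP interval overlapped neither of the others. It was 2.77-fold lower (1.61 to 4.51) in dpc16 than in NP, and 9.73-fold lower (2.35 to 86.1) in dpp42 than in NP. Within cluster 3, led by Col1a1, Dcn, Ccl7 and Ccl2, Oxtr stood at 15.6 CPM (6.74 to 30.7) in dpc16 against 85.4 CPM (44.1 to 149) in NP. The dpc16 call against NP held without clusters 25, 29 and 31, which hold 234, 41 and 275 dpc16 cells but at most 3 cells each of NP and dpp42. The dpp42 call ended without those clusters, at 6.94 CPM in dpp42 and 64.4 CPM in NP, and also without the top cell, under the 5% limit (0 and 65.2 CPM) and with shared clusters weighted equally.

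Prlr, the prolactin receptor, was scarce in fibroblast-like cells, at 27.9 CPM (12.1 to 55.0) in NP, 11.1 CPM (8.35 to 14.4) in dpc16 and 13.6 CPM (3.72 to 34.9) in dpp42. The 3 intervals overlapped. Its call as 2.52-fold lower in dpc16 than in NP (1.04 to 5.32) rested on 8 NP UMIs, 3 of them from 1 cell, and ended without the top cell of each library, at 10.5 CPM in dpc16 and 17.5 CPM in NP. It also ended under the 5% mitochondrial limit, with shared clusters weighted equally, without clusters 25, 29 and 31, and after division by the median ratio of all measured genes.

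Ghr, the growth hormone receptor, was detected in 31 of 103 NP, 573 of 1124 dpc16 and 26 of 112 dpp42 fibroblast-like cells. Its levels were 143 CPM (103 to 194), 210 CPM (197 to 223) and 106 CPM (71.8 to 150). After each cell was thinned to 1000 UMIs the shares of cells with a UMI were 17.5, 17.5 and 11.6%, beside 30.1, 51.0 and 23.2% before thinning. In the unnamed keratin clusters, with medians of 2464, 3396 and 2474 UMIs, the unthinned shares were 4.65, 8.60 and 3.90%. The dpc16 level was 1.47 times that of NP (1.07 to 2.06), just under the 1.5 used as the limit, and passed it once ratios were divided by the median of all measured genes. Against dpc16, Ghr was 1.99-fold lower in dpp42 (1.39 to 2.94). Pth1r, the Pthlh receptor, had 31.4 CPM (14.4 to 59.6), 52.0 CPM (45.9 to 58.8) and 37.5 CPM (18.7 to 67.1) in NP, dpc16 and dpp42, and all 3 intervals overlapped. Its ratio of dpc16 over NP, 1.66 (0.858 to 3.66), had an interval that included 1, and was called higher only after division by the median ratio.

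Pthlh showed a different pattern from its receptor. In fibroblast-like cells it had 0 UMIs in NP, 325 UMIs in 186 dpc16 cells, at 65.5 CPM (58.6 to 73.0), and 3 UMIs in 2 dpp42 cells, at 10.2 CPM (2.11 to 29.9). Set against a floor of 3 counts in NP, it was at least 6.26-fold higher in dpc16, and in dpp42 it was 6.40-fold lower than in dpc16 (2.17 to 31.2). With shared clusters weighted equally that last call ended, at 15.2 CPM in dpp42 and 49.0 CPM in dpc16. In dpc16 it was at 44.9 CPM in cluster 3, 74.9 CPM in cluster 19, 27.3 CPM in cluster 20, 21.6 CPM in cluster 25 and 155 CPM in cluster 31. In cluster 19 alone the dpc16 level was at least 2.16-fold that of NP. Keratinocyte markers in these cells summed to 4444, 3053 and 4924 CPM in NP, dpc16 and dpp42 fibroblast-like cells, with all 13 detected in each. In dpc16, Pthlh stood at 14.7 CPM in keratinocyte-like cells and 121 CPM in the unnamed keratin clusters. The part of their RNA in the fibroblast-like values was not tested.

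The stanniocalcins were both at 1 UMI in NP fibroblast-like cells. Stc1 had 3.49 CPM (0.0884 to 19.5) in NP, 37.1 CPM (31.9 to 42.9) in dpc16 and 51.1 CPM (28.6 to 84.4) in dpp42. The dpc16 and dpp42 intervals overlapped, and both lay above that of NP. Within cluster 19, however, Stc1 was lower in dpp42 than in dpc16, at 82.9 against 170 CPM, a ratio of 0.489 (0.267 to 0.831). That cluster made up 66 of the 112 dpp42 cells but 203 of the 1124 dpc16 cells, so the class levels rest on different mixes of clusters. Stc1 was 10.6-fold higher in dpc16 than in NP (1.88 to 422), though with cells picked by a marker gate without clustering its levels were 62.1 CPM in dpc16 and 29.7 CPM in NP. The comparison of dpp42 with NP, on 15 and 1 UMIs, fell short of the 20 UMIs needed to be measured. Stc2 had 3.49 CPM (0.0884 to 19.5) in NP, 68.1 CPM (61.1 to 75.8) in dpc16 and 6.82 CPM (0.826 to 24.6) in dpp42. It was 19.5-fold higher in dpc16 than in NP (3.48 to 773), and 9.99-fold lower in dpp42 than in dpc16 (2.74 to 82.8). Both calls ended without clusters 25, 29 and 31, where Stc2 had 20.9 CPM in dpc16, 3.79 CPM in NP and 6.94 CPM in dpp42. The dpp42 call against dpc16 ended with shared clusters weighted equally as well, at 7.70 and 24.9 CPM.

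In dpp42 against NP fibroblast-like cells, 4 of the 8 members were measured: Rxfp1 was higher, Oxtr lower, and Ghr and Pth1r neither. Of the 3867 genes measured there, 8.69% were higher and 6.88% lower. In dpp42 against dpc16, with all 8 measured, Rxfp1 was higher, Ghr, Pthlh and Stc2 lower, and 4 neither. Of 8578 genes, 20.2% were higher and 4.84% lower, and the median log2 ratio was −0.69 for the members and 0.48 for all measured genes. After division by that median, Oxtr and Pth1r were lower as well. These comparisons share libraries, so they are not independent of each other.

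**Figure D2:**
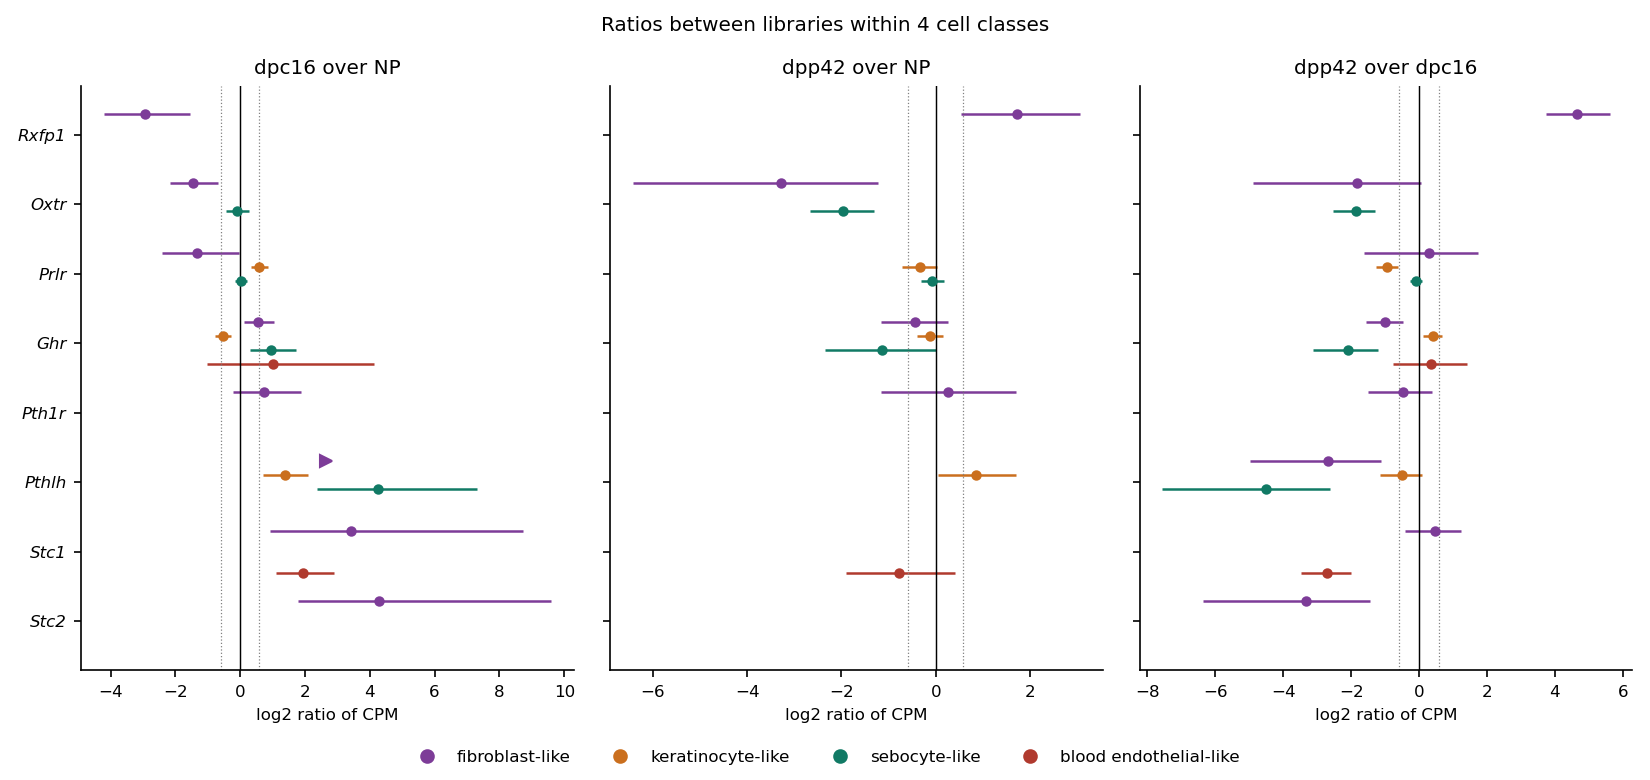
Log2 ratio of CPM between libraries for each measured member, with dpc16 over NP on the left, dpp42 over NP in the middle and dpp42 over dpc16 on the right, in 4 cell classes (colours). Bars are 95% counting intervals, dotted lines mark a ratio of 1.5 either way, and the triangle is the lower bound for Pthlh, which had no UMI in NP fibroblast-like cells. Rxfp1 lies left of 0 for dpc16 over NP and right of it in the other 2 panels, and Oxtr in sebocyte-like cells lies left of 0 in both dpp42 panels.

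The dpc16 fibroblast-like cells did not share these genes evenly. Of Stc1 UMIs, 83.7% lay in cluster 19, which held 18.3% of the class's UMIs, and Stc1 stood at 170 CPM (144 to 199) there. Of Stc2 UMIs, 62.7% lay in cluster 25, led by Ctla2a, Gpx3 and Ctsk, at 183 CPM (159 to 210), against 9.91 CPM (4.53 to 18.8) in cluster 19. Stc1 and Stc2 thus peaked in different fibroblast clusters, and only 4 cells carried UMIs of both, of 70 with Stc1 and 169 with Stc2. Cluster 31, led by Col1a1, Mfap4, Eln and Klk1, held 55.1% of Pthlh, 52.9% of Oxtr and 33.1% of Ghr UMIs beside 23.3% of all UMIs. Pth1r was highest in cluster 29, led by Coch, Fmod, Crabp1, Tnmd and Aspn, at 432 CPM (337 to 545) in 41 cells. The 10 leading genes of that cluster held 1 fibroblast marker and 1 dermal papilla and sheath marker, Crabp1. Ghr was close to absent from cluster 29, with 1 UMI (6.08 CPM, 0.154 to 33.9). Pthlh and Pth1r were found together in 22 cells, 11.8% of Pthlh cells and 11.6% of Pth1r cells, while 16.8% of all 1124 cells carried Pth1r. Clusters were built from all genes of these cells, so their differences are descriptions.

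**Figure D3:**
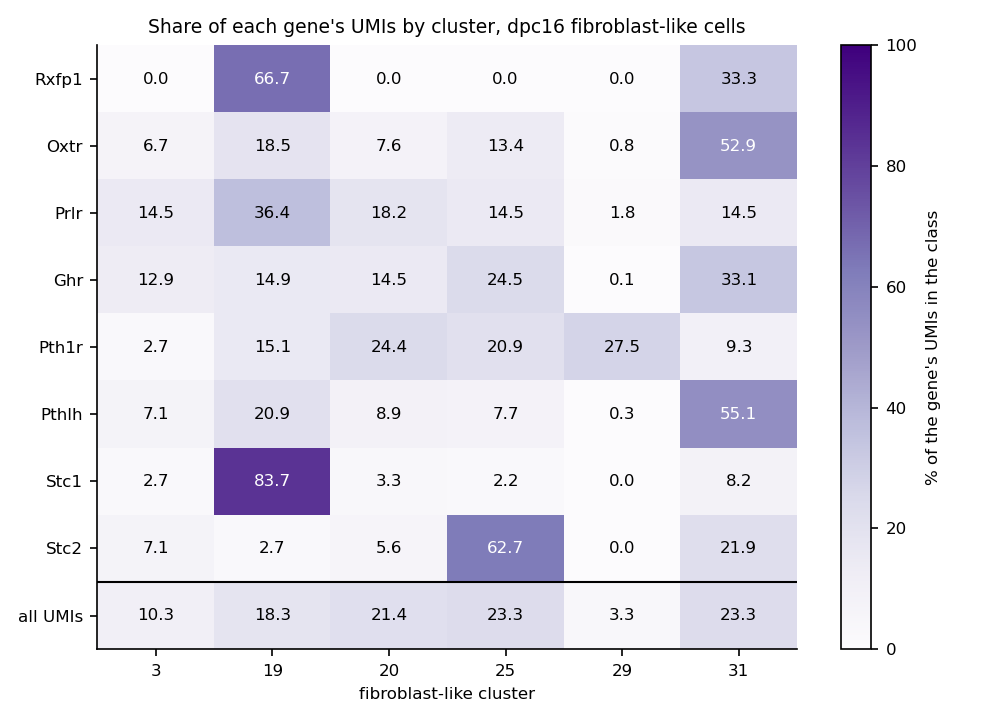
Share of each member's UMIs in dpc16 fibroblast-like cells that fell in each of the 6 clusters of the class (columns), in percent, with the share of all UMIs in the bottom row. Stc1 is concentrated in cluster 19 (83.7%) and Stc2 in cluster 25 (62.7%), while Pthlh and Oxtr have their largest shares in cluster 31 (55.1 and 52.9%).

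The signalling genes around the receptors were read in the same fibroblast-like cells. Of 16 listed prolactin and growth hormone signalling genes, Prlr and Ghr included, 13 were measured in dpc16 against NP. Of these, 1 was higher and 7 lower, Prlr itself among the lower, beside 6.33% higher and 15.9% lower over all genes. Their median log2 ratio was −0.84, beside −0.30 over all genes. Stat5b, a transcription factor activated by both receptors, stood at 33.5 CPM in dpc16 and 136 CPM in NP, and Stat5a at 16.3 and 45.4 CPM. Ptpn11, a phosphatase in cytokine receptor signalling, had 31.2 CPM in dpc16 and 76.8 CPM in NP, and Jak2 had 20.2 and 45.4 CPM. Igf1, a growth factor induced by growth hormone in liver and other tissues, was the only one higher and was named for that after its values were seen, at 312 CPM in dpc16 against 175 CPM in NP, a 1.79-fold difference (1.35 to 2.42). In dpp42 it stood at 71.6 CPM, lower than in NP, and Stat5b was lower too, at 68.2 CPM. There 3 of 10 measured genes were lower and none higher, beside 6.88% lower and 8.69% higher over all genes. Both Stat5 genes stood lower in dpc16 than in NP, while Ghr itself did not.

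Of 20 cyclic AMP signalling genes, the route used by Rxfp1 and Pth1r, 16 were measured in dpc16 against NP. None was higher, and Crem (26.8 against 73.3 CPM) and Pde4b (43.3 against 90.8 CPM) were lower, 2 of 16 beside the 15.9% lower over all genes, a share near that background. Of 12 Gq and calcium genes, the route used by Oxtr, 9 were measured, and Plcb3 was lower, at 6.05 against 31.4 CPM. That was 1 of 9, beside the 15.9% lower over all genes. Of 9 parathyroid hormone and Pthlh genes 5 were measured, with only Pthlh past the limit, beside 6.33% higher over all genes. Of 6 genes of the stanniocalcin and pappalysin axis 5 were measured, 2 higher and 1 lower, with a median log2 ratio of −0.36 beside −0.30 over all genes. Stc1 and Stc2 were higher and Igfbp5, a binding protein that the pappalysins cleave, was 4.68-fold lower, at 337 CPM in dpc16 against 1578 CPM in NP. In dpp42 against dpc16, Igfbp5 (2019 against 337 CPM) and the pappalysin gene Pappa (75.0 against 25.8 CPM) were higher, while Stc2 was lower. Those were 2 higher and 1 lower of 5 measured, beside 20.2% higher and 4.84% lower over all genes. The median log2 ratio of the list, 0.51, was near that of all genes, 0.48.

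Sebocyte-like cells are named from markers of sebocytes, which make the lipid of sebum. They held 55.9, 61.4 and 67.0% of Prlr UMIs and 79.4, 67.2 and 86.2% of Oxtr UMIs in NP, dpc16 and dpp42. For Oxtr, clusters 4 and 11 held 21 and 37 of the 81 class UMIs in NP, 52 and 132 of 321 in dpc16, and 3 and 13 of 25 in dpp42. With libraries pooled, Oxtr stood at 204, 102, 87.1, 33.1 and 1.15 CPM in clusters 4, 11, 12, 13 and 23. The mean log2 enrichment of sebocyte markers ran the other way, at 0.925, 0.989, 2.86, 4.11 and 5.19. Cluster 23, with the highest enrichment, held 1 Oxtr UMI, while Prlr stood at 176 CPM there. Over the class, Prlr stood at similar levels: 280 CPM (248 to 315) in NP, 284 CPM (268 to 300) in dpc16 and 266 CPM (237 to 297) in dpp42, with all intervals overlapping. The dpc16 to NP ratio was 1.01 (0.888 to 1.16), and the dpp42 level was 1.05-fold lower than that of NP (0.891 to 1.24). Cluster 4 differed, with 156 CPM in dpc16 against 362 CPM in NP, a ratio of 0.431 (0.261 to 0.713). Prlr was seen in 67.4, 76.1 and 67.2% of these cells, or 20.3, 24.4 and 24.0% after thinning, and in 0, 3.13 and 4.49% of blood endothelial-like cells, with medians of 2450, 4160 and 3101 UMIs. Oxtr instead stood at 83.0 CPM (65.9 to 103) in NP, 77.7 CPM (69.4 to 86.6) in dpc16 and 21.2 CPM (13.7 to 31.4) in dpp42. It was 3.91-fold lower in dpp42 than in NP (2.47 to 6.39) and 3.66-fold lower in dpp42 than in dpc16 (2.43 to 5.73), while the dpc16 to NP ratio was 0.935 (0.731 to 1.21). Both dpp42 calls held without clusters 4 and 11. In cluster 11, led by Akr1c18, Akr1c19 and Igfbp2, Oxtr stood at 175, 101 and 47.6 CPM in NP, dpc16 and dpp42. In cluster 12, led by Bex1, Plin2 and Scd1, it stood at 54.0, 110 and 18.4 CPM. Both clusters had their lowest level in dpp42, while their order of NP and dpc16 differed.

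Ghr and Pthlh were the 2 members higher in dpc16 than in NP sebocyte-like cells, of 4 measured, where 6.88% of 7239 genes were higher and 14.8% lower. Ghr had 20.5 CPM (12.5 to 31.7) in NP, 39.9 CPM (34.1 to 46.5) in dpc16 and 9.35 CPM (4.67 to 16.7) in dpp42. The ratio of dpc16 over NP was 1.95 (1.22 to 3.27). Under the 5% mitochondrial limit that call ended, at 30.6 CPM in dpc16 and 26.0 CPM in NP. Pthlh had 2 UMIs in NP, 160 UMIs in 59 dpc16 cells (38.7 CPM, 32.9 to 45.2) and 2 UMIs in dpp42, a ratio of dpc16 over NP of 18.9 (5.14 to 157). A single dpc16 cell held 24 of the 160 UMIs. Clusters 4 and 11 held most of it, at 126 and 83.0 CPM in dpc16, and without them Pthlh stood at 8.84 CPM in dpc16 and 2.97 CPM in NP, no longer past the limit. The dpp42 call against dpc16 ended there too, at 1.17 and 8.84 CPM.

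In dpp42 against NP sebocyte-like cells, Oxtr and Ghr were lower and Prlr neither, of 3 members measured, where 3.13% of 7085 genes were higher and 2.63% lower. Ghr was 2.19-fold lower (1.00 to 5.07) on 11 and 20 UMIs, a call that ended under the 5% mitochondrial limit, with shared clusters weighted equally, and without clusters 4 and 11 (9.37 against 11.9 CPM). In dpp42 against dpc16, Oxtr, Ghr and Pthlh were lower, of 4 measured, where 17.9% of 7280 genes were higher and 7.57% lower. Ghr was 4.27-fold lower (2.33 to 8.72) and Pthlh 22.8-fold lower (6.20 to 190). Sebocyte-like cells held more UMIs each than fibroblast-like cells, at medians of 5353, 7328 and 5630 in NP, dpc16 and dpp42. Their fibroblast markers summed to 120, 1041 and 225 CPM in those libraries, with 10, 12 and 11 of the 12 markers detected. The part of fibroblast RNA in the Ghr and Pthlh values was not tested.

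**Figure D4:**
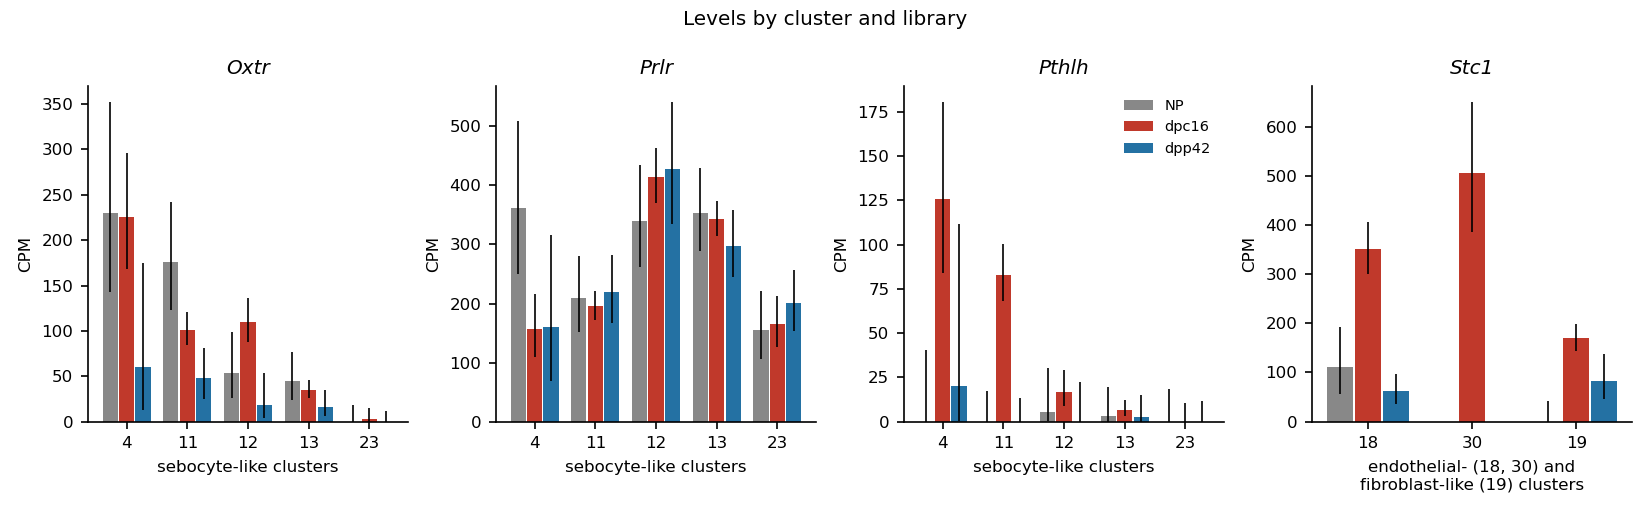
Levels (CPM) of Oxtr, Prlr and Pthlh in the 5 sebocyte-like clusters and of Stc1 in clusters 18 and 30 (blood endothelial-like) and 19 (fibroblast-like), for NP (grey), dpc16 (red) and dpp42 (blue). Bars are drawn for clusters with at least 8 cells in the library, and error bars are 95% counting intervals. In cluster 11 Oxtr stands at 175, 101 and 47.6 CPM in NP, dpc16 and dpp42, and Pthlh is at 83.0 CPM in dpc16 with no UMI in the other libraries.

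In keratinocyte-like cells Prlr, Ghr and Pthlh were measured. Prlr and Pthlh were higher in dpc16 than in NP, where 8.53% of 7868 genes were higher and 22.1% lower. Pthlh was higher in dpp42 than in NP, where 4.74% of 7887 were higher and 3.33% lower, and Prlr was lower in dpp42 than in dpc16, where 23.3% of 7917 were higher and 8.75% lower. Prlr had 40.3 CPM (34.3 to 46.9) in NP, 60.7 CPM (54.8 to 67.0) in dpc16 and 31.8 CPM (25.9 to 38.8) in dpp42, so dpc16 lay above both. It was 1.51-fold higher in dpc16 than in NP (1.25 to 1.82) and 1.91-fold lower in dpp42 than in dpc16 (1.53 to 2.40). Both calls ended when each cell was weighted equally, at 53.3, 68.2 and 48.1 CPM in NP, dpc16 and dpp42. Clusters differed in direction for dpc16 against NP: Prlr was higher in cluster 6 (79.7 against 39.0 CPM) and cluster 7 (47.2 against 23.6 CPM), and lower in cluster 0 (102 against 176 CPM, ratio 0.579, 0.356 to 0.946). After thinning the shares of cells with a UMI were 5.45, 5.81 and 3.86%, beside 15.2, 27.5 and 15.4% before. Ghr was 1.43-fold lower in dpc16 than in NP (1.21 to 1.70), under the limit of 1.5, at 46.0 against 65.9 CPM. In cluster 7, which held 52.1, 43.6 and 48.7% of the class's Ghr UMIs in NP, dpc16 and dpp42, its levels were 88.7, 88.9 and 89.0 CPM. In cluster 6, which came next in its share of Ghr UMIs in NP, the levels were 63.4 CPM in dpc16 and 94.3 CPM in NP, a ratio of 0.672 (0.473 to 0.947). Cluster 7 thus did not show the lower dpc16 level of Ghr, while cluster 6 had a lower value.

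Pthlh had 5.68 CPM (3.60 to 8.52) in NP keratinocyte-like cells, 14.7 CPM (11.9 to 17.9) in dpc16 and 10.3 CPM (7.04 to 14.5) in dpp42. It was 2.58-fold higher in dpc16 than in NP (1.62 to 4.27) and 1.81-fold higher in dpp42 than in NP (1.03 to 3.24). Other dpc16 classes had similar Pthlh levels: 14.2 CPM in blood endothelial-like cells (7 of 9 UMIs in 1 cell), 13.9 CPM in macrophage-like and 12.2 CPM in lymphatic endothelial-like cells. Their intervals overlapped that of keratinocyte-like cells. Langerhans and dendritic-like cells had 2.54 CPM, and dermal papilla and sheath-like and mural-like cells had no Pthlh UMI in dpc16. The 12 fibroblast markers, all detected, summed to 187, 1135 and 271 CPM in the keratinocyte-like cells of NP, dpc16 and dpp42, and their part in the Pthlh values was not tested. It was uneven between clusters: cluster 0, led by Cxcl14, Postn, Lhx2 and Krt15, had 82.9, 44.5 and 64.1 CPM in NP, dpc16 and dpp42, and cluster 27, led by Cst6, Krt6a and Krt71, had 136 CPM (92.1 to 195) in dpc16 and 18.7 CPM (3.86 to 54.7) in dpp42. With clusters present in all libraries weighted equally, none of the keratinocyte-like calls held, at 66.8 and 59.4 CPM of Prlr and 15.2 and 14.3 CPM of Pthlh in dpc16 and NP. In the unnamed keratin clusters Pthlh stood at 24.2 CPM (8.90 to 52.8) in NP, 121 CPM (105 to 139) in dpc16 and 154 CPM (109 to 211) in dpp42. It was 4.99-fold higher in dpc16 than in NP (2.25 to 13.8) and 6.34-fold higher in dpp42 than in NP (2.66 to 18.3). Cluster 2 held 165 of the 203 dpc16 UMIs of Pthlh and made up 192 of 442 dpc16 but 19 of 86 NP cells. Within it, Pthlh was neither higher nor lower in dpc16 than in NP (ratio 2.34, 0.984 to 7.31), and higher in dpp42 than in NP (7.34, 2.86 to 24.0). In cluster 9 it was higher in dpc16 than in NP, on 38 and 1 UMIs. Over both clusters the calls were as follows. Pthlh was the only measured member past the limit there, beside 6.19% of genes higher and 8.08% lower in dpc16 against NP, and 5.44% and 2.44% in dpp42 against NP. None of the members was past it in dpp42 against dpc16, where 10.1% of genes were higher and 5.06% lower. Within cluster 2, though, Pthlh was higher in dpp42 than in dpc16, at 764 against 244 CPM (ratio 3.13, 2.10 to 4.55), on 34 and 165 UMIs.

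Some listed feedback inhibitors of cytokine receptor signalling stood higher beside Prlr in dpc16 than in NP keratinocyte-like cells. These were Socs2 (21.0 against 4.20 CPM), Socs1 (18.7 against 6.92 CPM) and Cish (82.0 against 50.6 CPM). They were named after their values were seen. Of the 16 listed prolactin and growth hormone genes 12 were measured. Of these, 4 were higher, Prlr itself among them, and Stat5a was lower, beside 8.53% higher and 22.1% lower over all genes. Socs3, also on that list, was not past the limit. The Prlr call ended with cells or shared clusters weighted equally, and the other genes of the list were not run under those settings.

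In blood endothelial-like cells Stc1 was higher in dpc16 than in either other library. It had 99.2 CPM (51.3 to 173) in 41 NP cells, 379 CPM (333 to 430) in 128 dpc16 cells and 58.1 CPM (34.5 to 91.9) in 89 dpp42 cells, from 12, 240 and 18 UMIs. The dpc16 interval lay above both others, which overlapped. It was 3.82-fold higher in dpc16 than in NP (2.15 to 7.50) and 6.53-fold lower in dpp42 than in dpc16 (4.04 to 11.2). Against NP the dpp42 level was 1.71-fold lower (0.750 to 3.75), neither higher nor lower by the rule. Stc1 was detected in 22.0, 47.7 and 13.5% of these cells, beside 0.121, 0.493 and 0% of keratinocyte-like cells, and in 9.76, 18.8 and 5.62% after thinning. In cluster 18 alone, led by Fabp4, Il6, Aqp1 and Pecam1, the levels were 110, 350 and 61.6 CPM, with a ratio of dpc16 over NP of 3.17 (1.77 to 6.25). Fibroblast markers in these cells summed to 1571, 4421 and 1192 CPM, and Stc1 in dpc16 stood at 37.1 CPM in fibroblast-like cells and 170 CPM in their cluster 19. The part of fibroblast RNA in the endothelial values was not tested. Of members measured in this class, Stc1 was called in 2 of the 3 comparisons and Ghr in none. Over all genes 5.72% of 4440 were higher and 10.2% lower in dpc16 than in NP, 2.62 and 3.44% of 3171 in dpp42 against NP, and 13.1 and 8.38% of 5202 in dpp42 against dpc16. Lymphatic endothelial-like cells had 36.6 CPM of Stc1 (24.1 to 53.3) in dpc16 and 39.6 CPM (14.5 to 86.2) in dpp42.

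Apart from Pthlh, the listed ligands of these receptors were nearly absent from the skin cells themselves. Prl, Pth and Rln3 had no UMI in any library, and neither did the related peptide genes Pth2 and Insl3. That allows at most 0.508, 0.152 and 0.552 CPM in NP, dpc16 and dpp42 at 3 counts. Rln1, the relaxin gene of the mouse, had 0, 3 and 1 UMIs, Gh had 1, 1 and 0, and Oxt had 1, 20 and 1, the 20 in 6 dpc16 cells. Pthlh was the only listed ligand of the 5 receptors above 10 CPM in any whole library, at 5.59, 41.8 and 14.0 CPM.

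Across the 29 clusters of at least 30 cells, libraries pooled, the 9361 genes with at least 200 UMIs were ranked by Pearson correlation with each member on log2(CPM + 10). Clusters share libraries and depth, so these values are descriptions. The 3 closest genes were Vit (0.90), Wnt5a (0.87) and Mmp3 (0.85) for Rxfp1, and Igfbp2 (0.81), Apopt1 (0.80) and Wbp5 (0.77) for Oxtr. For Prlr they were Tkt (0.84), Hadh (0.82) and Fam213a (0.82), and for Ghr Scn7a (0.85), Adgrd1 (0.84) and Serpina3c (0.83). For Pth1r they were Abca8a (0.96), Wisp1 (0.95) and Twist2 (0.93), the highest set of the 8. For Stc1 they were Fgd5 (0.87), Uaca (0.85) and Prex2 (0.83), and for Stc2 Gpx3 (0.95), Spon1 (0.94) and Fgf7 (0.88). Pthlh had the weakest set, Inf2 (0.72), Filip1l (0.71) and Mitf (0.71). Among the members themselves the highest value was that of Ghr and Stc2 (0.60) and the lowest that of Prlr and Ghr (−0.44).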

How the data were processed

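The authors deposited unnormalized UMI counts, 1 matrix of genes by barcodes for each library. The submitters' processing notes name Cell Ranger 2.2.0 and the mm10 (GRCm38) build. The sources used here do not give the annotation release or how cells were called. Barcodes were kept with at least 200 genes and at most 10% mitochondrial UMIs, which left 6022 of 6648 against 6020 cells stated by the submitters. All 626 left out were over the mitochondrial limit: 3.08, 11.4 and 9.62% of NP, dpc16 and dpp42. No doublets were removed and no caller was run.

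The 3 libraries were clustered together without integration (scanpy 1.11.5: 10000 UMIs per cell, log1p, 2000 variable genes, 30 principal components, 15 neighbours, Leiden resolution 1, igraph 0.11.9), giving 34 clusters. A cluster took the name of the marker list with the highest mean enrichment, where at least 3 markers were in 10% of its cells at over 1.4 times the median cluster (20 CPM added to each). Clusters 2 and 9, keratin-expressing clusters with more haemoglobin genes than markers of their own list among their 10 leading genes, stayed unnamed. Names rest on rebuilt clusters and may differ from the study's.

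CPM have exact Poisson intervals, ratios exact conditional binomial intervals, and log2 ratios 0.5 UMI added to each sum. Shares of cells were also taken after thinning to 1000 UMIs. The interval and fold rule was run on simulated Poisson counts, the counting model that the intervals already assume. That run cannot show how the rule fares where a few cells hold many of the UMIs. The members, lists and tests were chosen with earlier results of these data known. Pathway genes named in fibroblast-like cells were the largest ratios past the limit, up to 4 a list and comparison, and likeness named the 3 highest correlations. Of 28693 gene identifiers 28339 matched GENCODE M21. Scripts ran in Python 3.11.15 with scipy 1.17.1, pandas 2.3.3, numpy 2.4.6, anndata 0.12.19 and matplotlib 3.10.9.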

Additional observations from a re-analysis of the deposited data

Results flagged for a closer look

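In fibroblast-like cells Rxfp1 was past the limit in opposite directions at the 2 later stages, with log2 ratios of −2.99 for dpc16 over NP and 1.66 for dpp42 over NP. Prlr in dpc16 over NP was higher in keratinocyte-like cells (log2 ratio 0.59) and lower in fibroblast-like cells (−1.41). Ghr in sebocyte-like cells had log2 ratios of 0.93 for dpc16 over NP and −1.10 for dpp42 over NP. None of these differences was itself tested, since each stage is 1 library.

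Pthlh was also found in the keratin clusters with haemoglobin transcripts that were given no class name. It stood at 121 CPM in dpc16 and 154 CPM in dpp42, against 24.2 CPM in NP. In dpp42, 6 cells of cluster 2 held 34 of the 38 UMIs.

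The barcodes left out for mitochondrial UMIs, 470 in dpc16, 115 in dpp42 and 41 in NP, also held receptor transcripts. Oxtr stood at 57.4 CPM in the dpc16 barcodes, against 0 in those of NP, which held 126099 UMIs in all. Prlr stood at 218 CPM in dpc16 and 176 CPM in dpp42, against 79.3 CPM in NP. The classes of those barcodes were not worked out.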

How the results depend on the processing

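Over 12 counts of members past the limit, 90 of 120 alternative values were within 1.5 times the main count, and of 260 alternative values for 25 member ratios, 259 kept their direction and 218 their call. The counts for fibroblast-like dpp42 over dpc16, sebocyte-like dpp42 over dpc16 and all 3 blood endothelial-like comparisons stayed within 1.5 times under every alternative run. The 6 members past the limit in fibroblast-like cells for dpc16 over NP became 3 (Oxtr, Pthlh and Stc1) without clusters 25, 29 and 31. The 2 for dpp42 over NP became 0 at 5% mitochondrial UMIs or with shared clusters weighted equally, and 1 without the top cell or without those clusters. In keratinocyte-like cells the 2 for dpc16 over NP became 1 at 5% or at a fold of 2, and 0 with shared clusters. There the 1 for dpp42 over NP became 2 with a marker gate in place of clusters, and 0 at 5%, at Leiden resolution 2, with cells or shared clusters weighted equally, at a fold of 2 or without the top cell. The 1 for dpp42 over dpc16 became 2 at 5%, at resolution 2, with the marker gate, after division by the median ratio or with 5 UMIs and no CPM minimum, and 0 with cells or shared clusters weighted equally or at a fold of 2. In sebocyte-like cells the 2 for dpc16 over NP became 1 at 5%, at a fold of 2 or without clusters 4 and 11. The 2 for dpp42 over NP became 1 at 5%, with shared clusters, with CPM outside mitochondrial, ribosomal protein and haemoglobin genes, or without clusters 4 and 11. Pthlh in keratinocyte-like cells, dpp42 over NP, reversed to a log2 ratio of −0.20 with shared clusters weighted equally, at 12.5 CPM in dpp42 and 14.3 CPM in NP. The cause of these shifts was not tested. The alternatives on top cells, on named clusters and on the sebocyte-like and endothelial-like classes were chosen after seeing the data.

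No paired analysis was possible because each stage is 1 library with no replicate. Depth limited the small classes: 3 counts came to 10.5 CPM in NP fibroblast-like cells, which held 286427 UMIs, and NP blood endothelial-like cells, with 120926 UMIs, were shallower still.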

Other observations

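Dermal papilla and sheath-like cells, few in each library (12 in NP, 31 in dpc16 and 9 in dpp42), held 2 members at high levels. Keratinocyte markers in these cells summed to 7406, 8407 and 8243 CPM in NP, dpc16 and dpp42. The 8 markers of the class itself summed to 7281, 1940 and 2107 CPM, and Corin, which is 1 of them, had no UMI in any library. The part of keratinocyte RNA in the values of this class was not tested. Prlr had 11, 21 and 9 UMIs in the 3 libraries, or 230 CPM (115 to 412), 160 CPM (98.9 to 244) and 412 CPM (188 to 782), and all intervals overlapped. A single dpp42 cell held 6 of its 9 UMIs. Stc2, which antagonises pappalysins, had 1, 16 and 4 UMIs, or 20.9, 122 and 183 CPM, and the 4 dpp42 UMIs came from 1 cell. One of the 10 leading genes of this cluster is Pappa2, a pappalysin gene. Stc1 had 10 UMIs in 6 dpc16 cells of the class and none in NP or dpp42.

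Avpr1a, the receptor for vasopressin, which oxytocin can also bind, had 140 UMIs in NP, 545 in dpc16 and 190 in dpp42, while Oxtr had 102, 478 and 29 over all kept cells.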
